A study of Mus musculus with 12 samples.

Results

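Fcer2a encodes CD23, the low-affinity receptor for IgE, and was followed across light zone (LZ) and dark zone (DZ) B cells of the germinal centre, each at high and low affinity for antigen. It was taken as the probe set that carries this symbol alone, and where a gene has several such probe sets, the one with the highest mean over the 12 arrays. Fcer2a had 1, probe set 10576757, and no probe set named it together with other genes. It is 1 of 19938 genes with a probe set of a single symbol, and 1 of the 11206 that were bright enough to be tested. The gene was picked with its difference between the zones known, so that difference is described here without a test.

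B cells with the SwHEL receptor for hen egg lysozyme, which carry CD45.1, were given to C57BL/6J recipients, which carry CD45.2, and the recipients were immunized with sheep red blood cells bearing the lysozyme mutant HEL3x. On day 10, donor cells of the spleen (CD45.1+, CD45.2-, IgG1+, CD38 low) were sorted as LZ_high, LZ_low, DZ_high and DZ_low. LZ cells were CD86 high and CXCR4 low, DZ cells CXCR4 high and CD86 low, and each of the 4 groups has 3 arrays of RNA from samples labelled female. How affinity was told apart, the animals' age and the number of animals behind an array are not stated in the labels, so the spread between arrays may be technical. All 4 groups share the transgenic receptor, the transfer and the immunization, and no group of naive B cells or of cells before immunization was measured.

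CD23 is a membrane protein of the C-type lectin family with its lectin head outside the cell. On B cells it binds IgE and the complement receptor CD21, and the metalloprotease ADAM10 sheds it as a soluble form. In B cells its transcription is known to respond to interleukin 4 through STAT6, to CD40 and to Notch2, and human BCL6 has been described as a repressor of it. Naive follicular B cells carry CD23, and activated follicular dendritic cells can carry it too.

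RefSeq annotates Fcer2a on the minus strand of chromosome 8 of GRCm38.p6, from 3680280 to 3694174, with 8 transcripts and, in its promoter table, 3 starts. The first and second start lie 3313 bases apart, the second and the third 471. The probe set gives 1 value for the gene, so transcripts from these starts cannot be told apart here, and the stretch before each start is shown for that reason. Each runs 5′ to 3′ on the minus strand from 250 bases before the start to 50 bases from the start on, and capitals mark every match to the 4 motifs named after the sequences.
Start 1, chr8:3694125-3694424: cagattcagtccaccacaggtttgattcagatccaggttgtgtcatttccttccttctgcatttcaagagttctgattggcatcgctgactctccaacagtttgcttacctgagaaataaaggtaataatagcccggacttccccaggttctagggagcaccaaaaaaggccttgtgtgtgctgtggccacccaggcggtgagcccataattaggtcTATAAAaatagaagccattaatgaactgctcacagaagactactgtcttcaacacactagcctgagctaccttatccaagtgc
Start 2, chr8:3690812-3691111: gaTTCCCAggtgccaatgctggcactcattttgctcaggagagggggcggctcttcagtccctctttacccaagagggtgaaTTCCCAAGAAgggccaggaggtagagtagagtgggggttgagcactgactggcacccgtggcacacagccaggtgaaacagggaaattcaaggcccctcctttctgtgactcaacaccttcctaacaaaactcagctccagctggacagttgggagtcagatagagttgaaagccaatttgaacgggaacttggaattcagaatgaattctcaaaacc
Start 3, chr8:3690341-3690640: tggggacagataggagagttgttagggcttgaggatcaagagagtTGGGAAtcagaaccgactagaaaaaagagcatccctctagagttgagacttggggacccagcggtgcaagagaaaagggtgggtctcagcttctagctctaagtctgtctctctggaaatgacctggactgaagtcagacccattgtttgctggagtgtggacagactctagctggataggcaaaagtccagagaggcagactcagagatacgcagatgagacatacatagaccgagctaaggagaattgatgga

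The motifs, searched on both strands, were the STAT6 site (TTC and GAA with any 4 bases between them), a STAT site with 3 spacer bases (TTC and GAA with any 3 bases between them), the core of the Notch partner RBPJ (TGGGAA) and the TATA box TATAAA. Start 1 had a TATA box with its first base at position -33 and none of the others. Start 2 had the STAT6 site at positions -168 to -159. It also had the RBPJ core, on the opposite strand, at -248 to -243 and at -168 to -163, and the match at -168 lies inside the STAT6 site. Start 3 had an RBPJ core at -205 to -200. The same windows of 32851 annotated starts of mouse genes held the STAT6 site in 6.95%, the STAT site with 3 spacer bases in 8.3%, the RBPJ core in 25.6% and the TATA box in 13.6%. These matches describe the letters only.

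Fcer2a RNA was highest in LZ_low cells, then in LZ_high, DZ_low and DZ_high cells, and the arrays of neighbouring groups did not overlap. In LZ_high cells its log2 RMA value (a background-corrected, normalized probe set intensity on the log2 scale) was 10.19, 10.02 and 10.17 on the arrays of matched sets 1, 2 and 3. In LZ_low cells it was 10.91, 10.81 and 11.06. In DZ_high cells it was 7.98, 8.40 and 8.44, and in DZ_low cells 9.22, 9.23 and 9.70. A matched set holds the 4 arrays, 1 per group, whose sample descriptions share a date suffix. All 12 values lay above the median of their array, and in bulk RNA fewer cells with the transcript and less of it per cell cannot be told apart.

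The group means were 10.13 ± 0.09 in LZ_high, 10.92 ± 0.13 in LZ_low, 8.27 ± 0.25 in DZ_high and 9.38 ± 0.27 in DZ_low cells (SD, n = 3 each). Between the lowest LZ_low array and the highest LZ_high array lay a gap of 0.62. The gap between LZ_high and DZ_low cells, the neighbours in the middle, was the smallest at 0.33, with a difference of means of 0.75 against a pooled SD of 0.20. That between DZ_low and DZ_high cells was 0.78. High-affinity LZ cells thus held more Fcer2a RNA than low-affinity DZ cells on every array. Of the 11206 tested genes, Fcer2a was the only 1 (0.00892%) whose 4 groups did not overlap in any order. This separation includes the zone difference, which was known when the gene was picked, so nothing is read from the count. The plot of Fcer2a on each array shows the 4 separate levels.

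**Figure D1:**
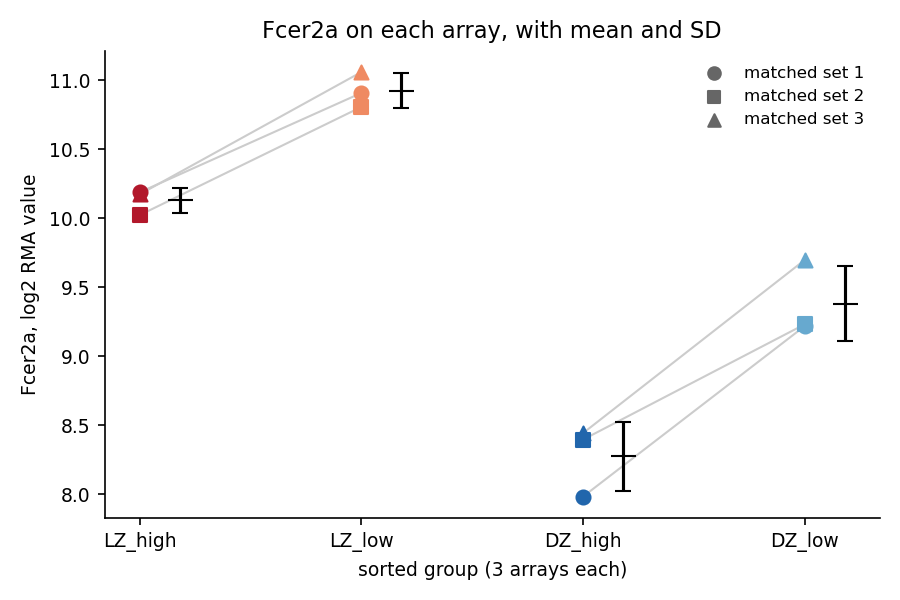
Log2 RMA value of Fcer2a on each of the 12 arrays by sorted group, with symbols for the 3 matched sets, grey lines joining the arrays of a set within a zone, and black bars for the mean and SD. The 4 groups do not overlap, from 7.98 to 8.44 in DZ_high cells up to 10.81 to 11.06 in LZ_low cells.

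LZ cells exceeded DZ cells at both affinities. The difference, LZ minus DZ, was 1.70 ± 0.13 on the log2 scale (SE of the limma fit, n = 3 per group), or 3.25-fold, as the mean of both affinities. Among high-affinity cells it was 1.85 ± 0.18, or 3.62-fold, and among low-affinity cells 1.54 ± 0.18, or 2.91-fold. In sets 1, 2 and 3 the high-affinity pairs differed by 2.21, 1.63 and 1.73, and the low-affinity pairs by 1.69, 1.58 and 1.36. All 6 LZ arrays, from 10.02 to 11.06, lay above all 6 DZ arrays, from 7.98 to 9.70. Of the tested genes 0.991% had LZ and DZ arrays that did not overlap, 7.38% when high-affinity arrays alone were compared and 9.26% when low-affinity arrays alone were. Since this contrast was known when the gene was picked, nothing is read from it.

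High-affinity cells held less Fcer2a RNA than low-affinity cells in both zones, by 1.74-fold in the LZ and 2.16-fold in the DZ. The difference, high minus low affinity, was -0.80 in the LZ (SE 0.18, 95% interval -1.19 to -0.40) and -1.11 in the DZ (SE 0.18, -1.50 to -0.71). In the LZ it was -0.72, -0.78 and -0.89 in sets 1, 2 and 3. In the DZ it was -1.24, -0.83 and -1.25. The sign was thus the same in 6 of 6 pairs, and within each zone the arrays of the affinities did not overlap, as was so for 8.81% of tested genes in the LZ and 7.16% in the DZ.

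Neither affinity difference passed the threshold of 0.05 when limma's p-values were adjusted over all genes (Benjamini-Hochberg adjusted p = 0.999 in the LZ and 0.734 in the DZ). As the mean of both zones the difference was -0.95 ± 0.13 (95% interval -1.23 to -0.67), with an adjusted p of 0.123 by limma, or 0.0661 with matched set as a replicate block. Its adjusted p was 0.0269 with matched set as a random block, 0.0192 after a new quantile normalization and 0.00752 with array weights, whose estimation stopped before converging. Other limma alternatives did not pass. The adjusted p was 0.328 with values centred on the array median and 0.114 with trend and robust eBayes. It was 0.112 with a stricter filter on dim probe sets and 0.109 with none. In the fit without any alternative, and also with the fixed replicate block, limma called no gene in the LZ, the DZ or both zones (percent called 0 of 11206 genes). At an unadjusted p under 0.05 the shares of genes were 4.16% in the LZ, 2.2% in the DZ and 5.25% over both zones, and with the replicate block 7.95%, 5.33% and 9.45%. Fcer2a had the smallest p of all tested genes in that contrast and in the DZ. An exact permutation test that swapped the affinity labels within each set and zone gave a two-sided p of 0.03125, the smallest that its 64 relabellings can give. That test treats the 6 pairs as independent, although the LZ and DZ pairs of a set share a date suffix and may not be. In either zone alone 8 relabellings allow no p below 0.25, which was the value in both. Fcer2a was picked with earlier results of these arrays known, so these p-values are not independent evidence.

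The zone difference was not shown to depend on affinity. The interaction, the affinity difference in LZ cells minus that in DZ cells, was 0.31 ± 0.25 (95% interval -0.25 to 0.87; limma adjusted p = 1.00), and it was 0.52, 0.05 and 0.37 in the 3 sets. No tested gene passed for the interaction (percent called 0), and 177 genes (1.58%) had an unadjusted p under 0.05 by limma, or 408 (3.64%) with the replicate block. The interval still allows a zone difference that is larger by 0.87 at high affinity.

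**Figure D2:**
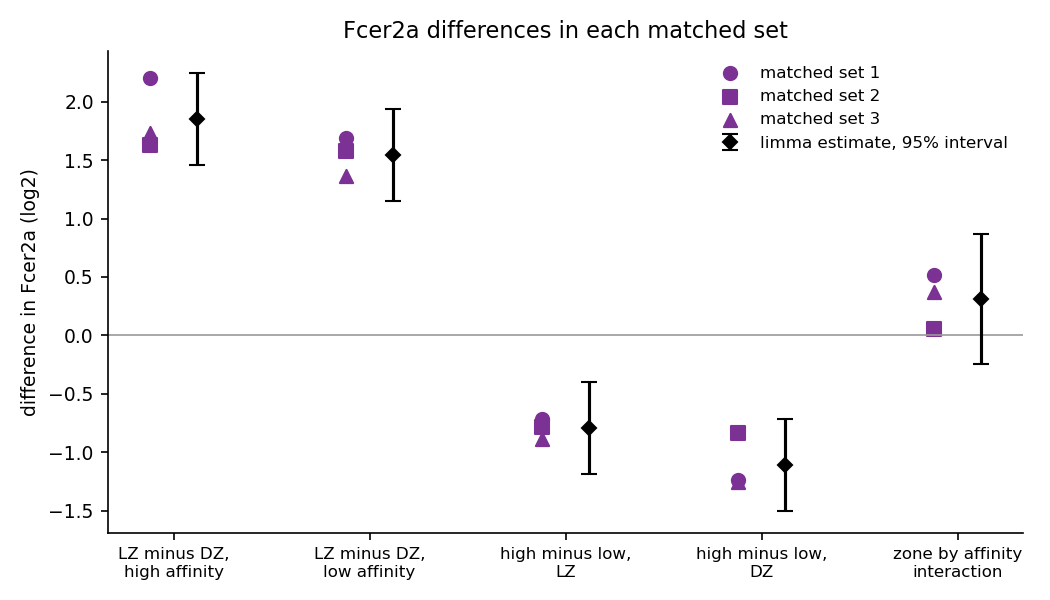
Differences of Fcer2a on the log2 scale in each matched set (purple symbols) and as estimated by limma with its 95% interval (black). The zone differences lie between 1.36 and 2.21, the affinity differences between -1.25 and -0.72, and the interval of the interaction holds 0.

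Most of the variation of Fcer2a over the 12 arrays lay between the sorted groups. Zone held 73.5% of its sum of squares, affinity 23.1%, their interaction 0.619% and matched set 1.43%, which left 1.34%. The medians over all tested genes were 4.42% for zone, 5.27% for affinity, 3.00% for the interaction, 28.0% for matched set and 41.4% for the rest. The pooled SD of Fcer2a within groups was 0.20, against a median of 0.28, and 25.1% of tested genes had a smaller one. Matched set 3, whose 4 arrays stood apart from the others on the first principal component (scores 12.5 to 52.9, against -26.4 to -6.71), had the highest mean of Fcer2a, 9.84 against 9.57 and 9.61 in sets 1 and 2. Without set 3 the zone difference was 1.77 and the affinity difference -0.75 in the LZ and -1.04 in the DZ.

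Of the genes of the sort gates, Cd86 passed between the zones, and Cxcr4 passed with the replicate block but not without it. Cd86, a costimulatory ligand, was higher in LZ cells by 1.13 ± 0.11 (limma adjusted p = 0.00138), its protein being part of the gate. Cxcr4, the chemokine receptor that holds cells in the DZ, differed by -0.63 ± 0.18 (adjusted p = 0.271, 0.0449 with the replicate block). With any 1 of the 12 arrays left out Cxcr4 did not pass (limma adjusted p up to 0.574). Of 13 B cell and germinal centre markers 10 were tested, Cd79a, Ms4a1 and Bcl6 among them, and none passed between the zones. Their mean log2 value lay between 10.18 and 10.38 on the 12 arrays. Gcsam, a germinal centre signalling adaptor, differed by -0.87 ± 0.21 (adjusted p = 0.143, 0.0373 with the block). The arrays' medians lay between 5.57 and 5.72.

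Of the proteins CD23 binds, the gene of its B cell ligand moved the same way between the zones. Cr2, which encodes CD21, was 10.54, 10.40 and 9.85 in LZ_high and 10.62, 10.76 and 10.49 in LZ_low cells, against 9.23, 9.58 and 8.62 in DZ_high and 9.57, 10.01 and 9.55 in DZ_low cells. It rose in LZ cells by 1.02 ± 0.18 (limma adjusted p = 0.0427, 0.00598 with the replicate block), in 6 of 6 pairs. With any 1 of 10 arrays left out it no longer passed (adjusted p up to 0.126), and without set 3 it did (0.0179). Between the affinities Cr2 had lower values at high affinity in 3 of 3 pairs in each zone, with differences of -0.36 ± 0.26 in the LZ and -0.57 ± 0.26 in the DZ, neither past the threshold. Cr2 was the only member called among the 6 tested of 10 CD21 complex and integrin genes, against 0.419% of all genes (47 of 11206, 26 higher and 21 lower) called between LZ and DZ. With the replicate block 1.2% of all genes were called, and at an unadjusted p under 0.05 the share was 7.06%, or 10.8% with the block. Cd81, the tetraspanin of that complex, differed by 0.07 ± 0.20 and Itgb3, an integrin chain, by -0.59 ± 0.15 (adjusted p = 0.18).

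The protease that sheds CD23 and its regulators did not pass between the zones. Adam10 was 8.74, 8.59 and 7.79 in LZ_high and 8.72, 8.55 and 8.63 in LZ_low cells, against 8.45, 8.58 and 8.07 in DZ_high and 8.99, 8.64 and 8.56 in DZ_low cells, so all groups overlapped. Its difference, LZ minus DZ, was -0.04 ± 0.17. None of the 9 tested of 16 sheddase genes passed, with a median of 0.07 beside -0.00 over all genes. Adam17, a related protease, differed by 0.40 ± 0.18 (adjusted p = 0.698), and Tspan14, a tetraspanin that escorts ADAM10, by -0.20 ± 0.33.

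The receptor chains and signal carriers of interleukin 4 had values at or above 0 for LZ minus DZ, and none of the 8 tested of 13 passed (median 0.16). Il4ra, the receptor's alpha chain, was 9.41, 9.05 and 9.86 in LZ_high and 9.94, 9.94 and 10.58 in LZ_low cells, against 8.70, 8.64 and 9.65 in DZ_high and 9.35, 9.31 and 10.30 in DZ_low cells. Its zone difference was 0.47 ± 0.25 (adjusted p = 0.834, 0.0701 with the replicate block). In each set LZ_low cells were highest and DZ_high cells lowest, as for Fcer2a, whereas LZ_high cells lay above DZ_low cells in set 1 only. Stat6, the transcription factor of the pathway, differed by 0.28 ± 0.15 and Ptpn6, the phosphatase SHP-1, by 0.43 ± 0.14 (adjusted p = 0.34, 0.0554 with the block).

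Of the CD40 pathway, the route of T cell help, none of the 8 tested genes passed between the zones (median 0.13). Cd40 itself differed by 0.55 ± 0.15 (adjusted p = 0.231, 0.0561 with the block) and Icosl, the ligand of the T cell costimulator ICOS, by 0.59 ± 0.22. Between the affinities in the LZ all 8 had lower values at high affinity, with a median of -0.27 and none past the threshold. Over all tested genes 5638 of 11206 had lower values and the median was -0.00. Icosl, at -0.81 ± 0.30, was nearest to Fcer2a in size.

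Of the Notch pathway 16 of 21 genes were tested and none passed between the zones (median 0.05) or between the affinities. Notch2, the receptor that directs marginal zone B cells, was 5.87, 5.98 and 5.61 in LZ_high and 6.54, 6.31 and 7.31 in LZ_low cells, against 5.88, 6.01 and 6.37 in DZ_high and 6.30, 6.29 and 6.63 in DZ_low cells. It showed no zone difference past its error (0.02 ± 0.18), while its affinity difference in the LZ was -0.90 ± 0.25 (adjusted p = 0.999), lower at high affinity in 3 of 3 pairs. Rbpj, its DNA-binding partner, differed between the zones by 0.25 ± 0.17, Hes1, a Notch target, by 0.44 ± 0.19 and Dtx1, another, by 0.33 ± 0.17, none past the threshold.

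Transcription factors linked to CD23 were all bright enough where they had a probe set of their own, 15 of 17, and none passed between the zones (median 0.28, 11 higher in LZ and 4 lower). Bcl6, the repressor that defines germinal centre cells, differed by 0.18 ± 0.13 and Pax5, the B cell identity factor, by -0.07 ± 0.22. Irf4, a factor induced by antigen and CD40, differed by 0.74 ± 0.21 (adjusted p = 0.25) and had higher values at high affinity in the LZ (0.56 ± 0.29) in 3 of 3 pairs. Nfkb2, an NF-kB subunit, differed between the zones by 0.50 ± 0.19 and Relb by 0.34 ± 0.11.

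**Figure D3:**
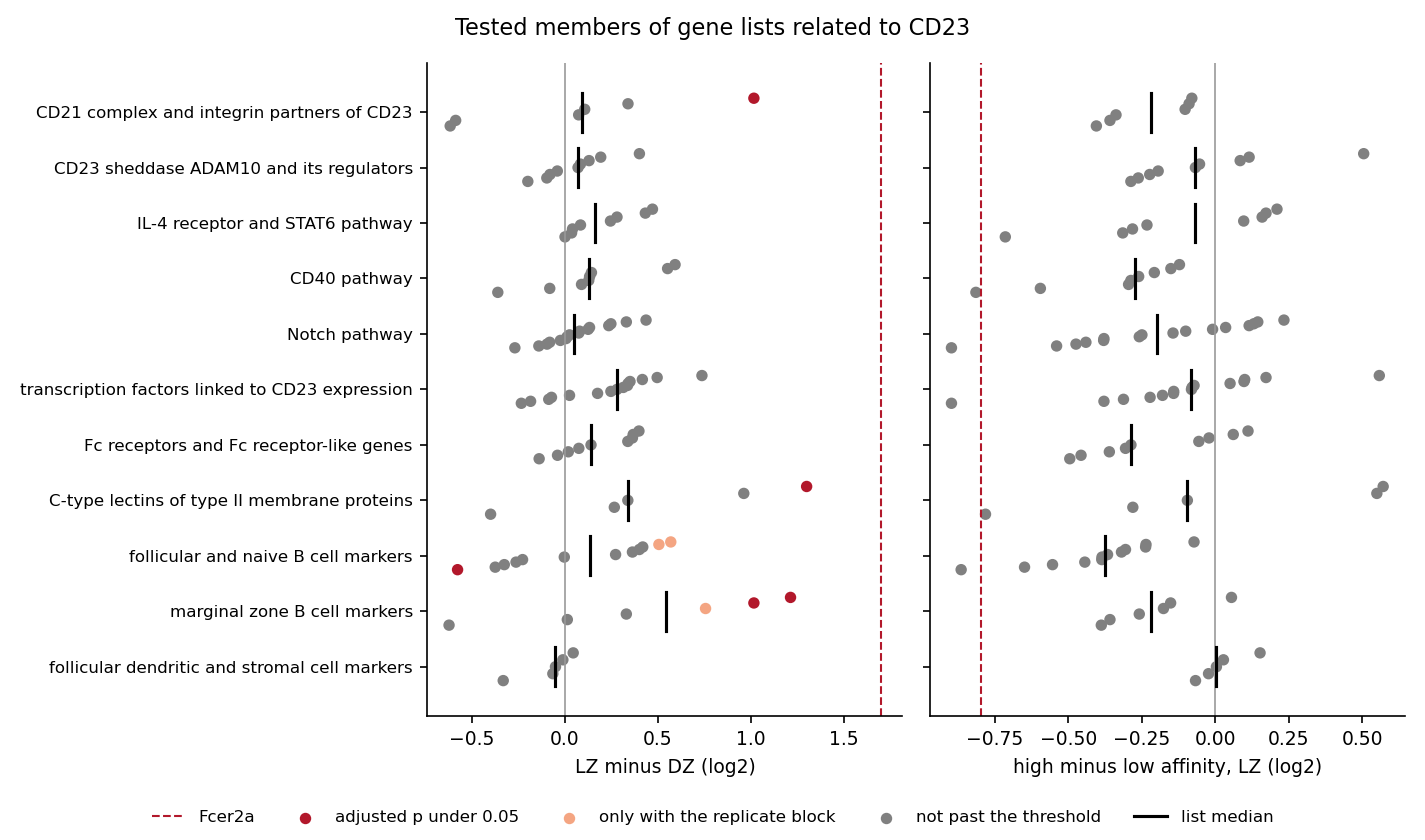
Log2 differences of the tested members (points) of 11 gene lists for LZ minus DZ (left) and high minus low affinity in the LZ (right), with list medians as black bars and Fcer2a as a dashed line at 1.70 (left) and -0.80 (right). Members past the adjusted threshold are red (Cr2, in 2 of the lists, Cd72, S1pr3 and Foxp1), those past it only with the replicate block are orange, and the right panel holds no member past it.

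None of the 9 tested of 17 Fc receptor and Fc receptor-like genes passed between the zones (median 0.14). Fcgr2b, the inhibitory IgG receptor of B cells, was 8.48, 8.03 and 8.11 in LZ_high and 8.91, 8.44 and 8.36 in LZ_low cells, against 7.80, 7.99 and 7.90 in DZ_high and 8.32, 8.15 and 7.78 in DZ_low cells. Its zone difference was 0.40 ± 0.14 (adjusted p = 0.473), and Fcgr3, an activating IgG receptor, differed by 0.37 ± 0.21. The high-affinity IgE receptor's chains Fcer1a and Ms4a2 were too dim to test, and Fcer1g, the signalling chain it shares with other receptors, differed by -0.14 ± 0.16.

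Of 27 C-type lectins with the membrane orientation of CD23, 5 were bright enough to test and 1 rose in LZ cells. That gene, Cd72, an inhibitory co-receptor of B cells, was 9.74, 9.62 and 9.06 in LZ_high and 10.23, 9.98 and 10.56 in LZ_low cells, against 7.60, 8.53 and 8.36 in DZ_high and 8.98, 8.61 and 9.33 in DZ_low cells. Its zone difference was 1.30 ± 0.20 (limma adjusted p = 0.0234, 0.0194 with the replicate block), which no longer passed with any 1 of 7 arrays left out (adjusted p up to 0.0752). Cd72 also had lower values at high affinity in each of the 6 pairs, by -0.78 ± 0.29 in the LZ and -0.81 ± 0.29 in the DZ, with no p past the threshold. Cd69, an early activation marker, differed between the zones by 0.96 ± 0.23 (adjusted p = 0.132).

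Of the 10 protein coding genes nearest to Fcer2a, 5 on each side in the GRCm38.p6 annotation, 3 were tested and none passed between the zones. Trappc5, next to Fcer2a on 1 side and a subunit of a trafficking complex, differed by -0.05 ± 0.15, Stxbp2, a vesicle fusion factor, by 0.01 ± 0.15 and Retn, the hormone resistin, by -0.09 ± 0.13. On the other side lie the lectin genes Clec4g, Cd209a, Cd209e, Cd209d and Cd209b, all too dim to test, as was Mcemp1. No probe set was named for Fcor in the annotation used here.

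Markers of other cells were set beside Fcer2a, and of these the background above names only naive follicular B cells and activated follicular dendritic cells as carrying CD23. Of 15 follicular and naive B cell markers 12 were tested. Between the zones Foxp1, a forkhead factor, fell by 0.58 in LZ cells (SE 0.11, limma adjusted p = 0.0453), which no longer passed with any 1 of the 12 arrays left out (adjusted p up to 0.129) or without set 3 (0.141). Cd22, an inhibitory co-receptor (0.51 ± 0.12), and Bank1, a scaffold of B cell signalling (0.57 ± 0.14), passed with the replicate block alone (adjusted p = 0.0443 and 0.0354), and Ccr7 and Klf2 did not pass (-0.00 ± 0.14 and 0.27 ± 0.18). Between the affinities in the LZ all 12 had lower values at high affinity (median -0.38, none past the threshold), and in the DZ 8 of 12 had (median -0.25). The mean log2 value of the list ran from 7.98 to 8.14 in LZ_high and from 8.43 to 8.56 in LZ_low cells, and from 7.98 to 8.26 in DZ_high and from 8.31 to 8.42 in DZ_low cells. The list's means at high affinity thus lay below those at low affinity in both zones, as the values of Fcer2a did, and their part in its affinity difference was not tested. How fully the sort for IgG1+, CD38 low donor cells left out naive follicular B cells was not tested.

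Marginal zone B cell markers had the highest median of the lists between the zones, 0.54 over 6 tested of 10. Cr2, already described, and S1pr3, a sphingosine phosphate receptor, rose in LZ cells (S1pr3 1.21 ± 0.20, limma adjusted p = 0.029, not passing with any 1 of 10 arrays left out), and Cd36, a scavenger receptor, passed with the replicate block (0.76 ± 0.16, adjusted p = 0.0338). Cd1d1 and Cd9, which mark these cells, were too dim to test, and Mzb1 differed by -0.62 ± 0.14. Of 15 follicular dendritic and stromal markers 5 were tested and none passed between the zones (median -0.05), with Mfge8, a bridging protein for dying cells, at -0.33 ± 0.12 and Col3a1, a collagen chain, at -0.07 ± 0.12. The mean log2 value was taken over the 13 members with a probe set, those too dim to test included. It lay between 5.24 and 5.57 in LZ_high, 5.26 and 5.46 in LZ_low, 5.46 and 5.56 in DZ_high and 5.32 and 5.52 in DZ_low cells. Cxcl13, Clu, Vcam1 and Coch were too dim to test. The part of follicular dendritic and stromal cells in the zone difference of Fcer2a was not tested beyond these values.

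None of the 5 tested macrophage and dendritic cell markers passed between the zones (median 0.17), none of 4 T cell markers (0.04) and none of 7 mast cell and granulocyte markers (-0.08). The members with the largest differences were the macrophage protein Cd68 (0.65 ± 0.18), Flt3 (0.18 ± 0.20), the T cell adaptor Lat (0.47 ± 0.14), Thy1 (0.18 ± 0.35), the eosinophil granule gene Prg2 (-1.02 ± 0.32) and Camp (0.35 ± 0.35). Between the affinities in the LZ their medians were -0.48, -0.31 and -0.64, and in the DZ 0.06, -0.05 and 0.46. None passed the threshold in either zone. The part of such cells in the affinity difference of Fcer2a was not tested. The T cell list reached a mean log2 value of 6.29 on 1 LZ_low array against at most 5.38 in LZ_high cells. Of 9 plasma cell markers 7 were tested, with a median of -0.34 between the zones. In LZ cells 6 had lower values and 1, Irf4, a higher value (0.74 ± 0.21). Jchain, the joining chain of secreted antibody, fell by 0.97 in LZ cells (SE 0.17, limma adjusted p = 0.0427, not passing with any 1 of 10 arrays left out). It was the only member called, against 0.419% of all tested genes.

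The genes most like Fcer2a were those with the highest Pearson correlation with it over the 12 arrays. These genes are a description only, since the 2 zones form separate clusters and arrays of a set share a date suffix of unstated meaning. They were Cd86 (r = 0.96), Cd72 (0.96), the transcription factor gene Hhex (0.93), Cd180 (0.93), the endosomal syntaxin gene Stx7 (0.92) and Gimap4 (0.92). Next came Slamf1 (0.92), the activation marker Cd83 (0.92), the interferon gamma receptor chain Ifngr2 (0.91) and Nxpe2 (0.91). Within the 6 LZ arrays the correlations of all these genes ranged from 0.32 for Slamf1 to 0.95 for Cd180. Within the 6 DZ arrays they ranged from 0.51 for Cd83 to 0.96 for Slamf1. Stx7 had 0.93 within the LZ and 0.93 within the DZ, although its zone difference was only 0.25 ± 0.09. Within each zone the affinity groups of Fcer2a did not overlap, so correlations within a zone also carry its affinity difference. With group means removed, the correlations of these genes ran from 0.01 for Hhex to 0.75 for Cd72, with 0.68 for Stx7. Hhex differed by 2.04 between the zones, by -1.15 between the affinities in the LZ and by -0.76 in the DZ. Cd86, whose protein was gated, differed between the affinities by -0.14 in the LZ and -0.81 in the DZ, and Cd83 by -0.35 and -0.17.

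The genes least like it were the myosin light chain gene Myl4 (r = -0.91), the mitotic kinase Aurka (-0.90), the mitotic cyclin gene Ccnb2 (-0.89), Tent5c (-0.87) and Jchain (-0.87). Once group means were removed, Eif4enif1 (r = 0.94), Clip2 (0.93), Pgm1 (0.92), Pacs1 (0.92) and Clspn (0.92) followed the deviations of Fcer2a most closely over the 12 arrays, and their zone differences lay between 0.02 and 0.32. Genes chosen by likeness to Fcer2a over all arrays must differ between the zones, so no test was made on them.

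**Figure D4:**
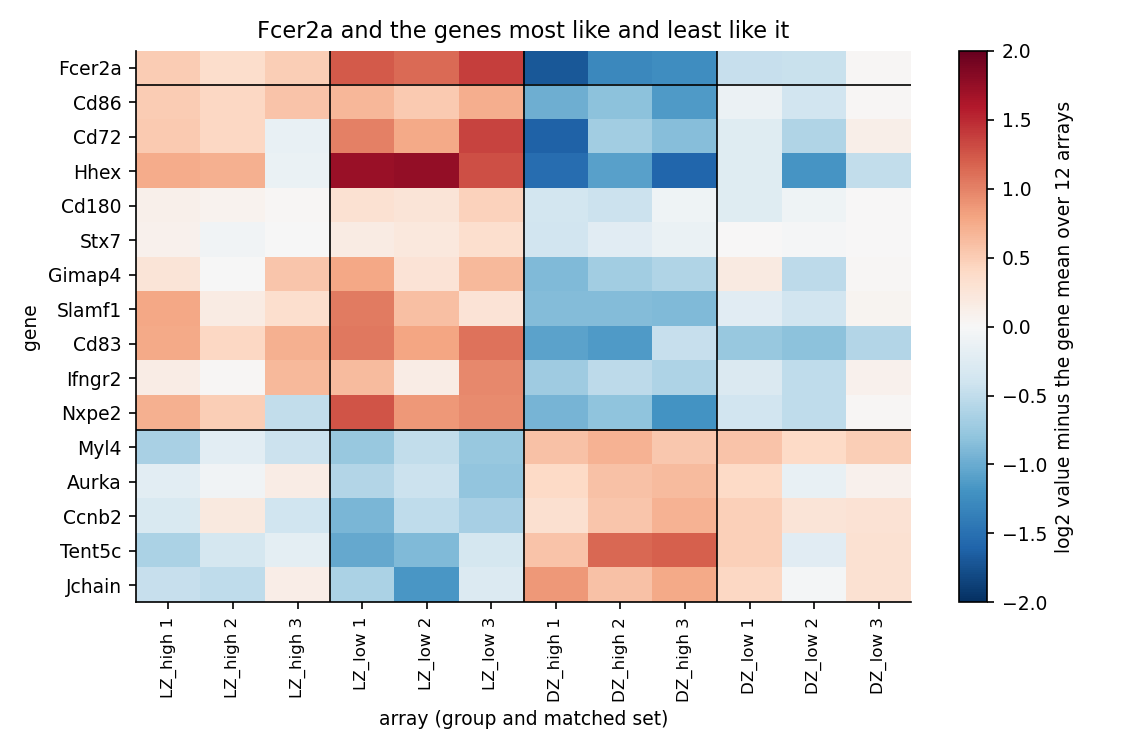
Log2 value minus each gene's mean over the 12 arrays, with Fcer2a on top, the 10 genes most like it next and the 5 least like it below, and arrays ordered by group and matched set. Fcer2a is highest on the LZ_low arrays and lowest on the DZ_high arrays. Hhex, Cd72, Cd180, Stx7, Cd83 and Nxpe2 are likewise highest on the LZ_low arrays.

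Set against all tested genes, Fcer2a combined a large zone difference with a large affinity difference. In the plot of both differences it lies next to Hhex in the corner of genes higher in LZ cells and lower at high affinity, with Cd72, Cd86 and Cr2 between it and the centre. Il4ra (-0.68 ± 0.25 for high minus low affinity over both zones) and Notch2 (-0.61 ± 0.18) shared the affinity direction without passing in either comparison.

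**Figure D5:**
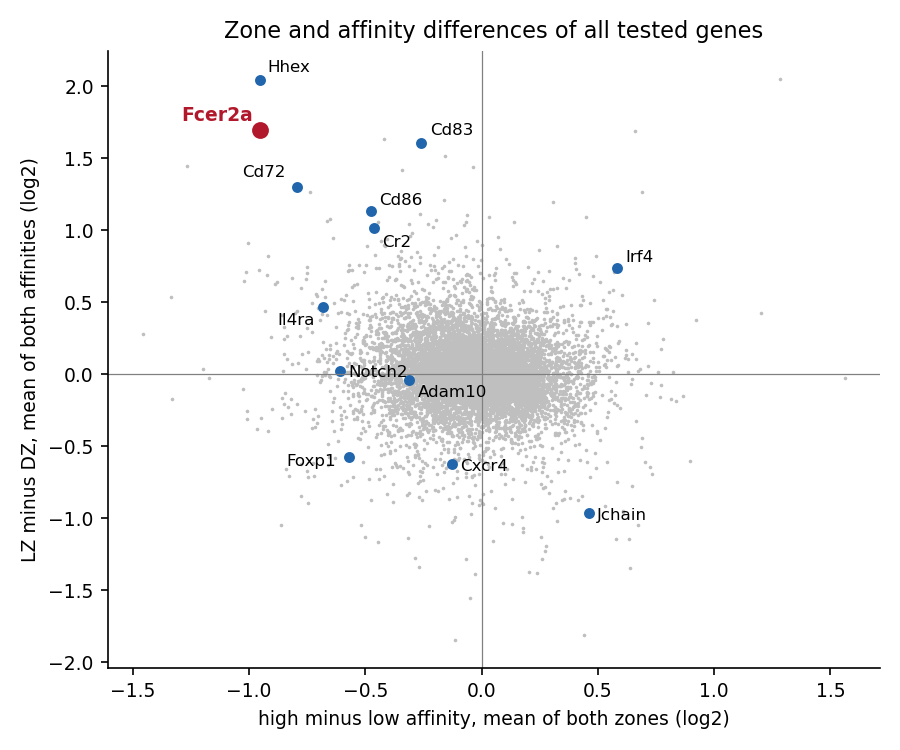
Each grey point is 1 of 11206 tested genes, with high minus low affinity (mean of both zones, log2) on the horizontal axis and LZ minus DZ (mean of both affinities, log2) on the vertical axis. Fcer2a (red) lies at -0.95 and 1.70, and the blue points are named genes.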

How the data were processed

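The authors deposited log2 values, 1 column per sample and 1 row per probe set. The submitters' processing notes name RMA and the build mm8 and no more. The log base was inferred from the range of the values, and array type and versions are not given in the sources used here. Probe sets were named through GEO's platform annotation, whose symbols can be old: of 28853, 21789 had 1 symbol, 1621 several and 5443 none, and 21698 of the 21789 matched RefSeq by gene ID. A gene was its 1-symbol probe set with the highest mean, tested when at least 3 arrays reached the array's median (percentile 50), which kept 11206 genes and left 8732 too dim. Promoter sequences are RefSeq's for GRCm38.p6, a later build than the deposited one, so no coordinate was carried between them.

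The 4 group means shared 1 fit of all 12 arrays by lmFit and eBayes (limma 3.58.1, R 4.3.3), tests were two-sided, and p-values were adjusted by Benjamini-Hochberg, threshold 0.05. The script was tested on simulated data. The gene and all 16 lists were chosen with earlier results of these data known. Named genes were Fcer2a, the sort genes, list members called without or with the block (else the members with the largest zone differences), a fixed set of CD23-related genes, the 10 most and 5 least correlated genes, the 5 most correlated in deviations, and the nearest neighbours; a few further members were named after their values were seen. Sets come from the date suffix in the labels: with group means removed, 17 of 18 same-set pairs of arrays correlated above 0.1 (lowest -0.071, median 0.41), and the closest array was of the same set for 11 of 12. Alternatives were a fixed or random block, other filters and normalizations, array weights, trend and robust eBayes, all probe sets, fewer groups, and leaving out arrays or set 3. The number of arrays limits the precision.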

Additional observations from a re-analysis of the deposited data

How the results depend on the processing

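The zone difference of Fcer2a kept its direction in 22 alternative fits. The affinity difference of Fcer2a over both zones passed with matched set as a random block (-0.95, adjusted p = 0.0269), after quantile normalization (-0.96, 0.0192) and with array weights (-0.93, 0.00752), as did that in the LZ with array weights (-0.84, 0.0250), whose estimation stopped before converging. The exact permutation over both zones (-0.95), which treats the LZ and DZ pairs of a set as independent, gave p = 0.03125. In the 12 fits without 1 array the adjusted p of the affinity difference over both zones lay between 0.145 and 0.552. With the replicate block this difference stayed short of the threshold (adjusted p = 0.0661). The interaction was never called in its 22 alternatives. Without 1 array, the zone difference ran from 1.63 to 1.78, the affinity difference from -0.86 to -0.73 (LZ), -1.19 to -0.95 (DZ) and -0.99 to -0.87 (both zones), and the interaction from 0.15 to 0.40.

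The 47 genes called between the zones became 135 with the replicate block, 110 with the random block, 80 after quantile normalization, 28 centred on the array median, 327 with array weights and 87 without set 3, and 12 (without DZ_low replicate 1) to 67 (without LZ_high replicate 3) in fits without 1 array. The count of 0 for affinity became 103 in the LZ and 52 over both zones with array weights, 5 in the DZ and 2 over both zones with all probe sets, and 1 over both zones with the random block or quantile normalization. Without 1 array it was 0 to 1 in the DZ. The cause was not tested.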
